A study of Mus musculus with 7 samples.

Results

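The genes described here encode G protein-coupled receptors for chemoattractants and metabolites other than chemokines, which were Fpr1, Fpr2, C5ar1, C3ar1, Ltb4r1, Ptafr, Hcar2 and Ffar2. They were chosen by gene symbol, with earlier results of these data known, and all 8 were present among the 16047 genes of the deposited table. RNA was sequenced from neutrophils sorted at 24 h following acetaminophen (APAP)-induced liver injury (AILI) as CD11b+Ly6CloCX3CR1-GFP-Ly6G+ cells, 50000 per liver, from C57BL/6 mice. Of the 7 libraries, 4 came from livers of mice injected with PBS ("PBS neutrophils", replicates 5 to 8). The other 3 came from mice injected with 400 µL of medium holding 29 µg/mL of MC-21, an antibody against the monocyte chemokine receptor CCR2 ("MC-21 neutrophils", replicates 2 to 4), starting 12 h ahead of APAP and repeated every 24 h. Mice of both groups received APAP, in the study's methods 300 mg/kg to males 8 to 12 weeks old, so that no library came from uninjured liver. The labels describe the MC-21 livers as lacking infiltrating Ly6Chi monocytes, and they do not say which allele stood behind the GFP of the sort. The comparison asks how neutrophils of an injured liver differ when these monocytes are kept out.

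These receptors tell neutrophils where damage or infection lies. Formyl peptides released from bacteria and from the mitochondria of dying cells bind FPR1 and FPR2, the complement fragments C5a and C3a bind C5AR1 and C3AR1, and the lipids leukotriene B4 and platelet-activating factor bind the receptors encoded by Ltb4r1 and Ptafr. HCAR2 binds the ketone body beta-hydroxybutyrate and niacin, and FFAR2 binds short-chain fatty acids such as acetate. Most of them act through Gi proteins, which set free beta-gamma subunits that drive phosphoinositide 3-kinase gamma, phospholipase C and the turning and crawling of the cell, and receptor kinases and arrestins then switch the receptors off. In necrotic liver, mitochondrial formyl peptides acting on FPR1 are known to guide neutrophils over the last stretch into the dead tissue.

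Values were RPKM, that is reads scaled to the length of the transcript and to the depth of the library, as the authors deposited them. The steps between low values gave the depth, such that 1 RPKM in a transcript of 1 kb stood for 2.66 to 3.96 reads in PBS and 1.59 to 3.57 reads in MC-21 libraries. Neutrophil genes were high in every library, S100a9 between 12275 and 25041 RPKM and Retnlg between 2069 and 7058 RPKM, and the summed level of 12 neutrophil markers was 18846 to 32104 RPKM in PBS and 29212 to 43190 RPKM in MC-21 libraries. This sum was mostly S100a9, while Csf3r and Mmp9 had log2 fold changes of -0.01 and -0.03, the only 2 of the 12 that were negative. Transcripts of marker genes of other cell types were present as well, and whether such cells were in the sort was not tested. The endothelial list, led by Clec4g and Pecam1, summed to 1035 to 2327 RPKM in PBS and 1178 to 2108 RPKM in MC-21 libraries, and the hepatocyte list, led by Apoa1 and Trf, to 280 to 651 RPKM and 279 to 441 RPKM. The monocyte and macrophage list, led by Cd68 and Csf1r, summed to 254 to 358 RPKM in PBS and 190 to 233 RPKM in MC-21 libraries without overlap. Ccr2, the target of the antibody, had 2.42 ± 0.588 RPKM in PBS (SD, n = 4) and 0.197 ± 0.195 RPKM in the MC-21 group (SD, n = 3). On the second principal component, which held 26.6% of the variance, PBS replicates 6 and 7 and MC-21 replicate 2 stood at 0.41, 0.20 and 0.54, and PBS replicates 5 and 8 and MC-21 replicate 4 at -0.53, -0.34 and -0.32, so that libraries also differed in a way the groups do not explain.

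Fpr1 rose in MC-21 neutrophils, in a call that was lost when any 1 of the 7 libraries was left out. Ltb4r1 and Ffar2 had higher values in every MC-21 library than in any PBS library without passing the adjusted threshold. The low C3ar1 lay lower in every MC-21 library. Fpr2, C5ar1, Ptafr and Hcar2 overlapped between the groups. Of all genes tested, 3.1% were higher in every MC-21 library than in any PBS library and 10.2% were lower. The difference between the groups, MC-21 minus PBS, was taken on a scale of log2(RPKM + 1), which understates the change of low genes, and tested in the 9594 genes whose mean reached 1 RPKM. Of the 8 receptor genes 7 passed this filter, since C3ar1 had a mean under 1 RPKM. With limma and Benjamini-Hochberg adjustment over all 9594 genes, 1 of these 7, Fpr1, had an adjusted p under 0.05 and was higher, against 0.198% of all genes tested that were higher and 0.625% in either direction. The cutoffs of the study, applied to this fit (unadjusted p under 0.05, 2-fold or more, higher), were passed by 1 gene, Ffar2, against 1.02% of all genes.

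The median log2 fold change of the 7 receptor genes was 0.44, beside -0.15 for all genes tested, of which 69.4% were lower in MC-21 neutrophils. When each library was centred on its own median, the median of the 7 was 0.60 beside 0.02 for all genes. The 12 neutrophil markers, of which 10 had a positive fold change, had a median log2 fold change of 0.46, close to that of the receptors. In sorted bulk samples, fewer cells of a type and less RNA per cell cannot be told apart, and the part of the cell mixture in the differences of the receptors was not tested. The plot of the receptor genes by library shows the 7 values behind each difference.

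**Figure D1:**
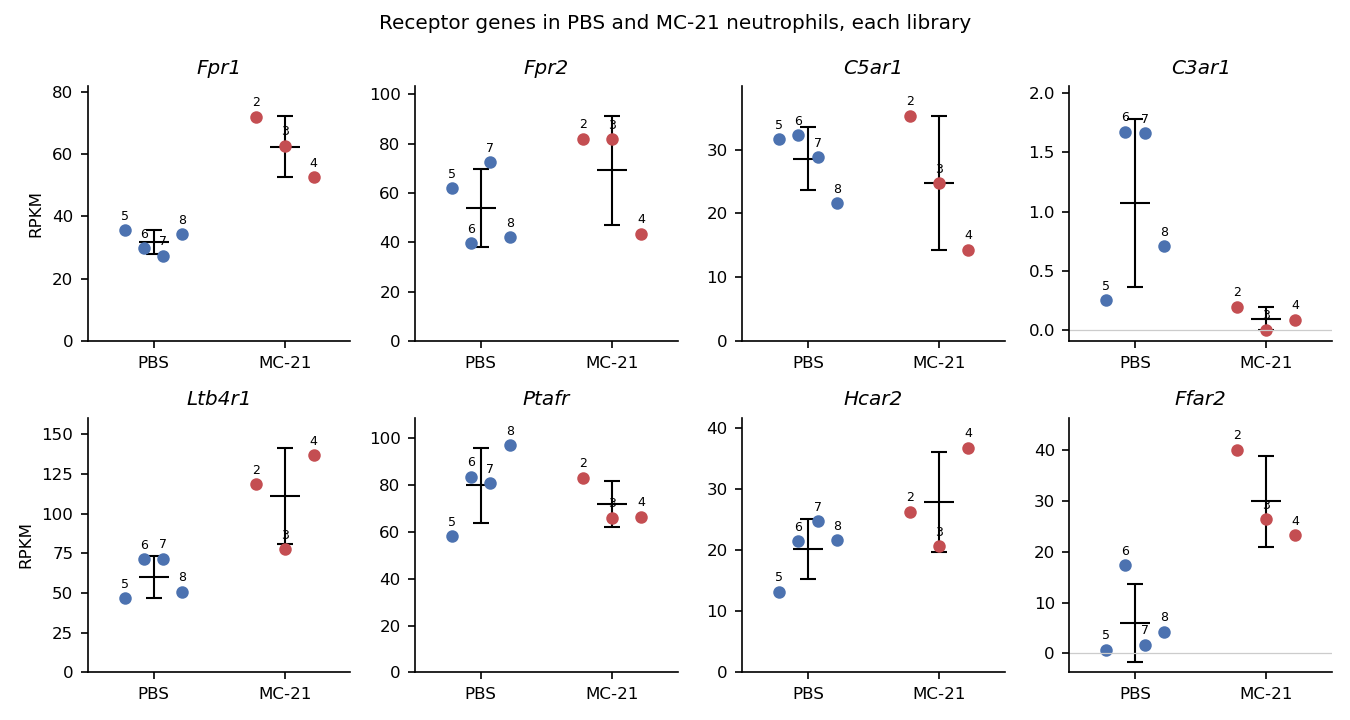
RPKM (vertical axis, one scale per gene, starting at or below 0) of the 8 receptor genes in the 4 PBS (blue) and 3 MC-21 (red) libraries, with replicate numbers beside the points and the mean ± SD of each group in black. Fpr1, Ltb4r1 and Ffar2 are higher in all 3 MC-21 libraries than in any PBS library, C3ar1 is lower, and the other 4 genes overlap.

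Fpr1, the high-affinity formyl peptide receptor, had 35.5, 29.7, 27.3 and 34.2 RPKM in PBS replicates 5 to 8 and 71.9, 62.7 and 52.5 RPKM in MC-21 replicates 2 to 4. Every MC-21 library lay above every PBS library, as in 3.1% of all genes tested, and the PBS libraries spanned only 1.30-fold. Group means were 31.7 ± 3.83 RPKM (SD, n = 4) and 62.4 ± 9.75 RPKM (SD, n = 3), a 1.93-fold difference on the log scale (log2 fold change 0.95, standard error (SE) 0.16, 95% confidence interval 0.58 to 1.32, adjusted p = 0.0415 from limma). The rank of Fpr1 among all genes of a library moved from between 1738 and 2160 in PBS to between 956 and 1181 in MC-21 neutrophils. Leaving out any 1 of the 7 libraries kept the log2 fold change between 0.84 and 1.07 but ended the call, with an adjusted p between 0.0614 and 0.123. The call was also lost without the filter on low values (adjusted p = 0.125) and with limma without a trend (adjusted p = 0.0634). The genes with the most similar pattern over the 7 libraries were Dclre1b, Ap4b1 and Vps54, with root mean square differences of 0.14, 0.17 and 0.22 on the centred log2(RPKM + 1) scale.

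Whole reads could be recovered for Fpr1 from its RPKM and the depth. They numbered 130, 131, 96 and 179 in the PBS libraries, in the order above, and 340, 132 and 193 in the MC-21 libraries. The highest PBS value, 35.5 RPKM in replicate 5, had a 95% Poisson interval of 29.7 to 42.2 RPKM, and the lowest MC-21 value, 52.5 RPKM in replicate 4, one of 45.3 to 60.4 RPKM. The gap between the groups therefore exceeded the counting error of the single libraries. These intervals cover counting error only.

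Fpr2, which also binds formyl peptides, annexin A1 and cathelicidin, had 61.9, 39.6, 72.5 and 42.1 RPKM in PBS replicates 5 to 8 and 82.1, 81.9 and 43.6 RPKM in MC-21 replicates 2 to 4. The groups overlapped, and within each of them Fpr2 was spread more widely than Fpr1. Means were 54.0 ± 15.9 RPKM (SD, n = 4) and 69.2 ± 22.2 RPKM (SD, n = 3), and the log2 fold change was 0.34 (SE 0.28, 95% confidence interval -0.30 to 0.97, adjusted p = 0.626 from limma). This interval includes both 0 and the fold change of Fpr1. The most similar pattern was that of Casp4, the inflammatory caspase 11 of mice, with a root mean square difference of 0.18, then those of Rbm43 and Gpt2.

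The balance between the formyl peptide receptors can be read within a library, free of scaling between libraries. In PBS replicates 5 to 8 the RPKM of Fpr1 was 0.574, 0.750, 0.376 and 0.812 times that of Fpr2, and in MC-21 replicates 2 to 4 it was 0.876, 0.765 and 1.20 times. MC-21 replicate 4 was the only library in which Fpr1 exceeded Fpr2, and PBS replicate 8 lay above MC-21 replicate 3. On the log2 scale with a pseudocount of 1 the ratio was -0.71 ± 0.49 in PBS (SD, n = 4) and -0.10 ± 0.33 in MC-21 neutrophils (SD, n = 3), a difference of 0.61 (exact permutation test, two-sided, 35 arrangements, p = 0.143, where the smallest p possible is 0.0286). A change of Fpr1 relative to Fpr2 was thus not shown.

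In mm9, Fpr1 lies on chromosome 17 from 18013435 to 18020904 on the minus strand and Fpr2 from 18024788 to 18030916 on the plus strand, head to head with 3883 bases between them. The annotation places another gene, Fpr3, over the body of Fpr2 on the same strand, and 7.20% of the 50-base words of the Fpr2 transcript also occur in transcripts of Fpr1 or Fpr3, so the reads of Fpr2 are uncertain. Fpr1 shared 0.0784% of its words. The 250 bases before each start are shown because only Fpr1 of this divergent pair passed the test, although a change of Fpr1 relative to Fpr2 was not shown. They come from RefSeq's promoter table (GRCm38.p6) and were found letter for letter at 1 place each in mm9, at chr17:18020904-18021153 (minus strand) for Fpr1 and chr17:18024538-18024787 (plus strand) for Fpr2. Capitals mark TATAAA.
Fpr1: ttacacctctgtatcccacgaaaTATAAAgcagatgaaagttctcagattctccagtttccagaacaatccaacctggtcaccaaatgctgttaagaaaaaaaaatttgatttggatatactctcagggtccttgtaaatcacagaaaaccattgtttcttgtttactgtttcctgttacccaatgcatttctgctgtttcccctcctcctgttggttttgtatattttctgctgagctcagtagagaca
Fpr2: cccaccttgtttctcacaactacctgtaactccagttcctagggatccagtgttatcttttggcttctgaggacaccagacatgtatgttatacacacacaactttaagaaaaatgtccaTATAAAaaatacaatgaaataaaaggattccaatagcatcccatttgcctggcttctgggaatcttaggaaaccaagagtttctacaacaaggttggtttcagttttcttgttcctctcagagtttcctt
TATAAA began 227 bases before the start of Fpr1 and 130 bases before that of Fpr2. It was present in 3 of the 7 receptor genes with a promoter in the table (Fpr1, Fpr2 and C3ar1), on either strand of the 250 bases, and in 12.4% of all 32851 promoters searched in the same way. Neither window held TGANTCA (AP-1), TTNNGCAA (C/EBP), GAGGAAGT (PU.1) or the NF-kB consensus, which says only that these letters are not in these windows.

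**Figure D2:**
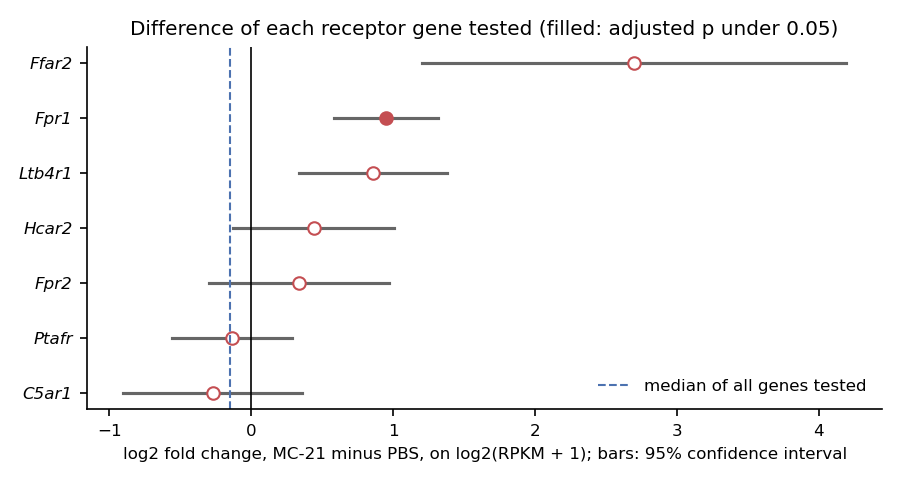
Log2 fold change (horizontal axis, MC-21 minus PBS on log2(RPKM + 1)) of the 7 receptor genes tested, with 95% confidence intervals from limma and filled points for an adjusted p under 0.05. The interval of Fpr1 (0.58 to 1.32), that of Ltb4r1 (0.34 to 1.38) and that of Ffar2 (1.20 to 4.19) lie above 0 and above the dashed line, the median of all genes tested (-0.15), and Fpr1 alone is filled.

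Both anaphylatoxin receptors were measured, at very different levels. C5ar1, the receptor of C5a and a strong activator of neutrophils, had 31.7, 32.2, 28.8 and 21.6 RPKM in PBS replicates 5 to 8 and 35.3, 24.7 and 14.3 RPKM in MC-21 replicates 2 to 4. The MC-21 libraries held both the highest and the lowest value of the 7. Means were 28.6 ± 4.89 RPKM (SD, n = 4) and 24.8 ± 10.5 RPKM (SD, n = 3), and the log2 fold change was -0.27 (SE 0.28, 95% confidence interval -0.90 to 0.36, adjusted p = 0.695 from limma). The sign rested on MC-21 replicate 4, without which the log2 fold change was 0.06. Ywhah, 1110004F10Rik and Bub3 had the most similar patterns, with root mean square differences of 0.08, 0.10 and 0.10.

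C3ar1, the receptor of C3a, had 0.252, 1.68, 1.66 and 0.705 RPKM in PBS replicates 5 to 8 and 0.195, 0 and 0.0836 RPKM in MC-21 replicates 2 to 4. Every MC-21 library was below every PBS library, but these were few reads. The same held for 10.2% of all genes tested, a set that leaves out genes as low as C3ar1. The PBS libraries held 3, 24, 19 and 12 reads, and the MC-21 libraries 3, 0 and 1 reads. PBS replicate 5 and MC-21 replicate 2 both held 3 reads, with Poisson intervals of 0.0520 to 0.738 RPKM and 0.0403 to 0.571 RPKM, so their order lay within counting error, and the 0 reads of MC-21 replicate 3 allow up to 3 reads, or 0.438 RPKM. Summed over libraries, C3ar1 had 58 PBS reads and 4 MC-21 reads, and relative to depth the MC-21 to PBS ratio was 0.110 (exact 95% interval 0.0291 to 0.298, which covers counting error but not the spread between mice). C3ar1 was not among the genes tested because of its level. In a fit without the filter its log2 fold change was -0.86, with an unadjusted p = 0.0231 and an adjusted p = 0.364 from limma.

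C3ar1 is known to be expressed by monocytes and macrophages. Of 12 markers of these cells 10 were tested and 2 fell, Fcgr1 and Ccr2, against 0.427% of all genes tested that fell. In 5 of the 10 every MC-21 library was below every PBS library, against 10.2% of all genes tested. The other 5 overlapped, with log2 fold changes of -0.86 (Ms4a7), -0.58 (Csf1r), -0.25 (Ly6c2), -0.18 (Mrc1) and 0.02 (Adgre1). Of the 10 tested, 9 had a negative log2 fold change, as had 69.4% of all genes tested. Fcgr1, the high-affinity IgG receptor, had 6.15, 9.16, 11.9 and 13.3 RPKM in PBS replicates 5 to 8 and 1.08, 1.46 and 1.39 RPKM in MC-21 replicates 2 to 4 (log2 fold change -2.22, SE 0.25, adjusted p = 0.00851 from limma). Ccr2 had 1.91, 3.26, 2.30 and 2.18 RPKM and 0.390, 0 and 0.200 RPKM (log2 fold change -1.51, SE 0.23, adjusted p = 0.0263). PBS replicate 5, the PBS library lowest in C3ar1, was also the lowest in Ccr2 and Fcgr1. The part of these cells in the C3ar1 values was not tested.

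The ratio of C5ar1 to C3ar1 within a library rested on few C3ar1 reads. In PBS replicates 5 to 8 the RPKM of C5ar1 was 125, 19.2, 17.3 and 30.7 times that of C3ar1, and in MC-21 replicates 2 and 4 it was 181 and 171 times, while MC-21 replicate 3, with 0 C3ar1 reads, gives no ratio. Both MC-21 ratios were above every PBS ratio. On the log2 scale with a pseudocount of 1 it was 3.89 ± 0.55 in PBS (SD, n = 4) and 4.47 ± 0.58 in MC-21 neutrophils (SD, n = 3), a difference of 0.59 (exact permutation test, two-sided, p = 0.200). The size of this difference depended on the pseudocount, and with 0.1 in place of 1 it was 2.18 (exact permutation test, two-sided, p = 0.0857). C5ar1 lies on chromosome 7 from 16832092 to 16844889 (mm9, minus strand), and C5ar2, the second C5a receptor, which does not couple to G proteins, lies on the same strand with 2588 bases between them. C5ar2 had 22 ± 4.77 RPKM in PBS (SD, n = 4) and 19.3 ± 4.05 RPKM in the MC-21 group (SD, n = 3), with overlapping libraries (log2 fold change -0.18, adjusted p = 0.744 from limma). C3ar1 lies on chromosome 6 from 122797156 to 122806179 (minus strand).

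**Figure D3:**
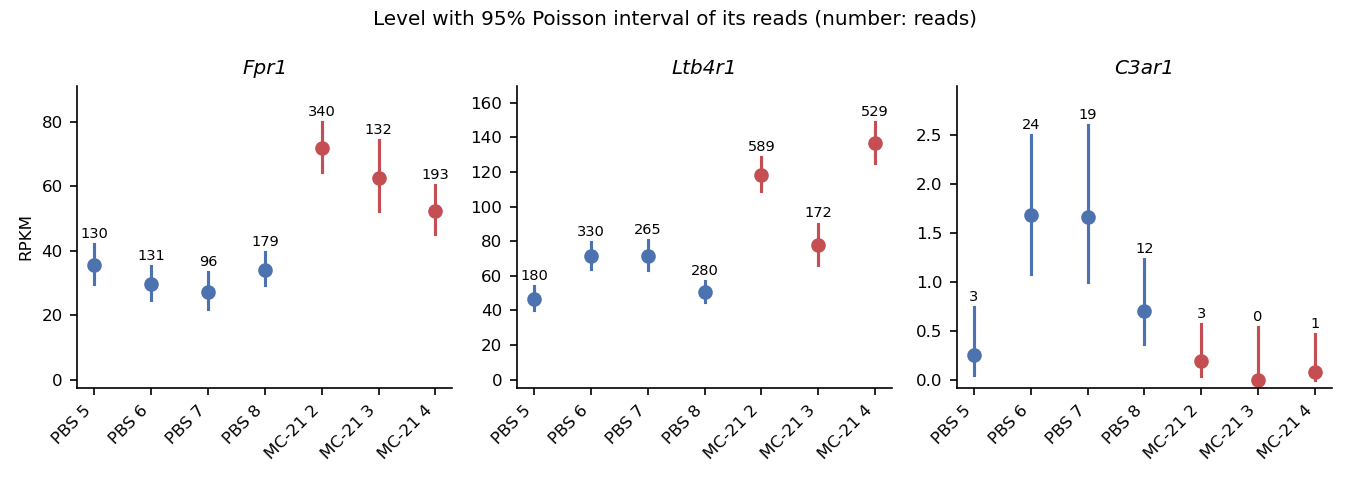
RPKM (vertical axis) of Fpr1, Ltb4r1 and C3ar1 in each library, with the 95% Poisson interval of the recovered reads as a bar and the number of reads above it, PBS in blue and MC-21 in red. The Fpr1 intervals of the groups are apart, those of Ltb4r1 in PBS replicate 7 and MC-21 replicate 3 overlap, and C3ar1 rests on 58 PBS reads and 4 MC-21 reads.

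Of the lipid receptors, Ltb4r1 had higher values and Ptafr did not differ beyond its spread. Ltb4r1 encodes BLT1, the high-affinity leukotriene B4 receptor through which neutrophils recruit one another into swarms. It had 46.8, 71.2, 71.6 and 50.8 RPKM in PBS replicates 5 to 8 and 118, 77.6 and 137 RPKM in MC-21 replicates 2 to 4. All MC-21 values were above all PBS values, as in 3.1% of all genes tested. However, MC-21 replicate 3, the shallowest library, lay close to the upper PBS values, 77.6 RPKM with a Poisson interval of 66.5 to 90.1 RPKM beside 71.6 RPKM with an interval of 63.2 to 80.7 RPKM in PBS replicate 7. Means were 60.1 ± 13.2 RPKM (SD, n = 4) and 111 ± 30.2 RPKM (SD, n = 3), a 1.82-fold difference (log2 fold change 0.86, SE 0.23, 95% confidence interval 0.34 to 1.38, unadjusted p = 0.00457, adjusted p = 0.156 from limma).

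Cd300lf, an inhibitory receptor of myeloid cells, had the pattern most like that of Ltb4r1 (root mean square difference 0.11, log2 fold change 0.91), followed by Egln3, an oxygen-sensing prolyl hydroxylase (0.12 and 0.99), and Slc46a3 (0.12 and 0.85). Ltb4r1 lies on chromosome 14 from 56384799 to 56387331 (mm9, plus strand), with 2955 bases between it and Ltb4r2, which encodes the low-affinity receptor. Ltb4r2 was at or under 0.261 RPKM in every library. The leukotriene B4 receptor mRNA measured in these cells was thus mainly that of the high-affinity form.

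Ptafr, the receptor of platelet-activating factor, had 58.3, 83.6, 80.9 and 97.1 RPKM in PBS replicates 5 to 8 and 83.1, 66.1 and 66.5 RPKM in MC-21 replicates 2 to 4. All MC-21 values lay within the PBS range. Means were 80.0 ± 16.1 RPKM (SD, n = 4) and 71.9 ± 9.72 RPKM (SD, n = 3), and the log2 fold change was -0.14 (SE 0.19, 95% confidence interval -0.56 to 0.29, adjusted p = 0.777 from limma), which became 0.03 when libraries were centred on their medians. The interval stays under a 2-fold change in either direction. Ptafr lies on chromosome 4 from 132119982 to 132138598 (mm9, plus strand). Dnaja4, Arl4c and H2-T24 had the patterns most like it, at root mean square differences of 0.06, 0.07 and 0.07.

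The metabolite receptors differed in how they behaved. Ffar2 had 0.768, 17.3, 1.73 and 4.29 RPKM in PBS replicates 5 to 8 and 40.1, 26.5 and 23.3 RPKM in MC-21 replicates 2 to 4. All MC-21 values were above all PBS values, as in 3.1% of all genes tested. The PBS libraries themselves spanned 22.6-fold, with replicate 6 far above the other 3. Means were 6.03 ± 7.67 RPKM (SD, n = 4) and 30.0 ± 8.94 RPKM (SD, n = 3), and the log2 fold change was 2.70 (SE 0.67, 95% confidence interval 1.20 to 4.19, unadjusted p = 0.00261, adjusted p = 0.122 from limma). By log2 fold change Ffar2 stood in place 3 from the top of the 9594 genes, and by p in place 205. Without PBS replicate 6 the log2 fold change was 3.36 with an adjusted p = 0.0128, and without any other library the adjusted p lay between 0.201 and 0.305.

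The PBS spread of Ffar2 exceeded counting error. Its 3 annotated transcripts of 1913 to 2292 bases did not give whole reads, but these lengths place PBS replicate 5 at 4.06 to 4.87 reads and PBS replicate 6 at 110 to 132 reads. The patterns most like that of Ffar2 were those of Socs2, a suppressor of cytokine signaling, Car4, a carbonic anhydrase, and Matk, a kinase that restrains Src family kinases, with root mean square differences of 0.58, 0.59 and 0.60 and log2 fold changes of 1.89, 3.50 and 1.88. They compare with a root mean square spread of 1.66 for Ffar2 itself over the 7 libraries, which for Fpr1 was 0.50.

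Ffar2 lies on chromosome 7 from 31603376 to 31608794 (mm9, minus strand), on the same strand as Ffar3, a second receptor of short-chain fatty acids, with 30554 bases between them. Ffar3 was at 0 in all libraries but MC-21 replicate 3, which had 0.387 RPKM. The 250 bases before the outermost of the 4 starts that RefSeq lists for Ffar2 (GRCm38.p6 table, found at 1 place in mm9, chr7:31608795-31609044, minus strand) are shown because this gene had the largest fold change of the 7 receptor genes tested and 2 of the motifs searched. Capitals mark a match to TTNNGCAA (C/EBP) that began 74 bases before the start and, after it and not overlapping it, a match to TGANTCA (AP-1) that began 52 bases before the start.
Ffar2: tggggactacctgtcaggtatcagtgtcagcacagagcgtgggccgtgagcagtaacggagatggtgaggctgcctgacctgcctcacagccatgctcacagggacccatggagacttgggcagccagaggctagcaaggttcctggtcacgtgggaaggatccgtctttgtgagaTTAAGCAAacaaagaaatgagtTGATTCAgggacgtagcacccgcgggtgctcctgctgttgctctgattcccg
On either strand, TTNNGCAA was found in 9.56% and TGANTCA in 6.75% of the 32851 windows of the same length. These shares are per window, whereas 4 windows were searched for Ffar2. TGANTCA was in the window shown only, TTNNGCAA was also in others, and which start these cells use was not tested. Among the receptor genes TGANTCA was also present before C3ar1, which went the other way, and TTNNGCAA before no other gene. GAGGAAGT (PU.1) and the NF-kB consensus, found in 2.44% and 7.25% of all windows, were in none of the 7 genes.

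Hcar2, which was listed under its older symbol Niacr1 in the annotation, had 13.2, 21.4, 24.7 and 21.7 RPKM in PBS replicates 5 to 8 and 26.3, 20.7 and 36.8 RPKM in MC-21 replicates 2 to 4. The groups overlapped through MC-21 replicate 3, which lay below 3 of the 4 PBS libraries. Means were 20.2 ± 4.94 RPKM (SD, n = 4) and 27.9 ± 8.17 RPKM (SD, n = 3), and the log2 fold change was 0.44 (SE 0.25, 95% confidence interval -0.13 to 1.01, adjusted p = 0.459 from limma). Rufy4, Chd7 and Kctd11 had the patterns most like it, at root mean square differences of 0.10, 0.11 and 0.12. Hcar2 lies in 1 exon on chromosome 5 from 124313581 to 124315518 (mm9, minus strand), with 11226 bases between it and Hcar1, the lactate receptor, which was at 0 in all libraries but MC-21 replicate 2, at 0.256 RPKM.

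Levels are per kilobase of transcript, and in 3′ libraries, where reads come from the transcript's end, this lowers long transcripts such as Ptafr (3640 bases) and C3ar1 (4299 bases) beside short ones such as Fpr1 (1323 bases). In PBS neutrophils the order of the mean RPKM was Ptafr, Ltb4r1, Fpr2, Fpr1, C5ar1, Hcar2, Ffar2 and C3ar1. Fpr2 lay above Fpr1 in all 4 libraries without overlap of their ranges, whereas Ltb4r1 lay above Fpr2, and Fpr1 above C5ar1, in only 2 of 4 libraries. In MC-21 neutrophils the order was Ltb4r1, Ptafr, Fpr2, Fpr1, Ffar2, Hcar2, C5ar1 and C3ar1. Ltb4r1 lay above Ptafr in all 3 of these libraries, and below it in all 4 PBS libraries. Neighbours whose ranges were apart in MC-21 neutrophils were Fpr1 and Ffar2, and C5ar1 and C3ar1, and all other neighbours overlapped. Among all genes, the PBS mean of Ptafr was higher than that of 94.6%, that of Fpr1 than 88.0%, that of Ffar2 than 65.6% and that of C3ar1 than 40.1%, and in MC-21 neutrophils Fpr1 stood above 93.5%, Ffar2 above 88.0% and C3ar1 above 19.2%. The summed level of the 8 genes was 248 to 309 RPKM in PBS and 360 to 457 RPKM in MC-21 libraries.

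Among related receptors, 2 of the 8 genes tested had a positive log2 fold change. Of 26 genes for further formyl peptide, lipid, prostanoid, sphingolipid and metabolite receptors, 18 were in the table and 8 were tested, of which 0 had an adjusted p under 0.05 by limma and 1 had an unadjusted p under 0.05, as 14.7% of all genes tested had (median log2 fold change -0.20, beside -0.15 for all genes). In 7 of the 18 every library was under 1 RPKM. The highest were S1pr1, the sphingosine 1-phosphate receptor of leukocyte egress, and C5ar2. S1pr1 had 16, 32.7, 40.0 and 12.9 RPKM in PBS replicates 5 to 8 and 47.6, 11 and 13.1 RPKM in MC-21 replicates 2 to 4, high in the same 3 libraries that stood together on the second principal component (log2 fold change -0.25, adjusted p = 0.857).

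The machinery that makes or removes ligands was mixed. Of 20 such genes 16 were tested, 0 had an adjusted p under 0.05 by limma, 4 had an unadjusted p under 0.05 with higher and 3 with lower values, against 3.59% and 11.2% of all genes tested, and the median log2 fold change was 0.06. C3, the precursor of C3a, had 22.9, 57.5, 28.0 and 39.3 RPKM in PBS replicates 5 to 8 and 97.8, 72.3 and 76.5 RPKM in MC-21 replicates 2 to 4, without overlap (log2 fold change 1.20, SE 0.28, adjusted p = 0.109 from limma). C3 is also a major product of hepatocytes, and the 8 hepatocyte markers had a median log2 fold change of -0.10, with 2 of 8 above 0. The part of hepatocytes in the C3 values was not tested. Ltc4s, which makes leukotriene C4, had 73.0 ± 20.2 RPKM in PBS (SD, n = 4) and 132 ± 17.5 RPKM in the MC-21 group (SD, n = 3), again without overlap (log2 fold change 0.88, adjusted p = 0.110). The most abundant were Alox5ap, the partner of 5-lipoxygenase in leukotriene synthesis, at 1008 ± 153 and 1377 ± 144 RPKM (log2 fold change 0.46, adjusted p = 0.224), and Pla2g7, the plasma enzyme that degrades platelet-activating factor, at 198 ± 17.9 and 304 ± 28.3 RPKM (log2 fold change 0.61, adjusted p = 0.0791), both without overlap between the groups. Of the 16 genes, 4 were higher without overlap and 1 lower, against 3.1% and 10.2% of all genes tested. The lower gene was Pafah1b3 (log2 fold change -0.84, adjusted p = 0.0822 from limma). Camp, the gene of cathelicidin, had the largest absolute log2 fold change of the list, -1.89, with overlapping libraries (adjusted p = 0.281 from limma).

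Downstream of the receptors, no gene passed the adjusted threshold. Of 28 genes of G protein signalling all 28 were tested, and 0 had an adjusted p under 0.05 by limma. An unadjusted p under 0.05 was reached by 2, Dock2 and Pik3r6, both with lower values, against 11.2% of all genes tested, and the median log2 fold change was 0.01. In 5 of the 28 every MC-21 library was below every PBS library, against 10.2% of all genes tested. Dock2, the Rac activator of migrating leukocytes, had 12.8 ± 2.10 RPKM in PBS (SD, n = 4) and 8.27 ± 2.23 RPKM in the MC-21 group (SD, n = 3), without overlap (log2 fold change -0.59, adjusted p = 0.256). Pik3r6, a regulatory subunit of phosphoinositide 3-kinase gamma, had 8.58 ± 1.58 and 5.80 ± 1.57 RPKM (log2 fold change -0.51, adjusted p = 0.332). The most abundant were Gng5, a gamma subunit, at 1350.2 ± 309.8 and 1616 ± 70.5 RPKM, and Gnai2, the main Gi alpha subunit of neutrophils, at 674 ± 74.2 and 601 ± 45.5 RPKM, with log2 fold changes of 0.29 and -0.16.

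Of 16 genes that switch the receptors off, 13 were tested, 0 had an adjusted p under 0.05 by limma and 1 had an unadjusted p under 0.05, against 14.7% of all genes tested, with a median log2 fold change of -0.06. That gene was Rgs1, which speeds the shut-off of Gi proteins. Rgs1 had 65.8, 84.9, 128 and 111 RPKM in PBS replicates 5 to 8 and 40.0, 55.7 and 57.9 RPKM in MC-21 replicates 2 to 4, without overlap (log2 fold change -0.89, SE 0.24, adjusted p = 0.154). Lower values without overlap were found in 10.2% of all genes tested. Arrb2, beta-arrestin 2, at 167 ± 25.8 and 175 ± 26.5 RPKM, and Grk2, listed as Adrbk1, at 143 ± 36.4 and 139 ± 7.30 RPKM, were the most abundant and had log2 fold changes of 0.07 and -0.01.

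**Figure D4:**
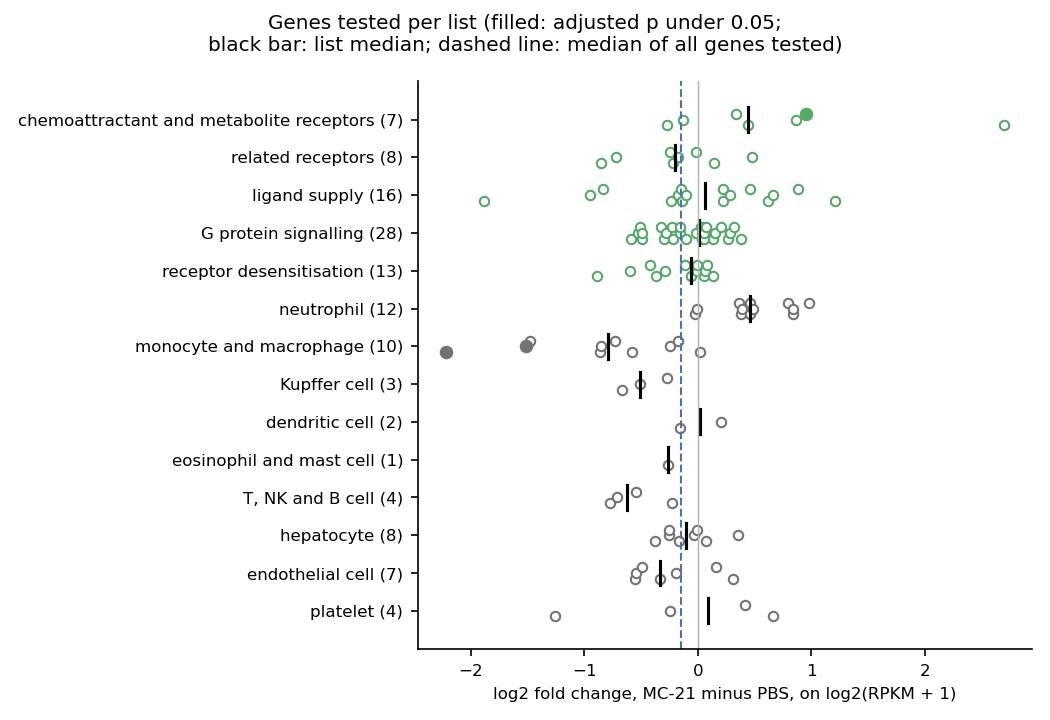
Log2 fold change (horizontal axis, MC-21 minus PBS on log2(RPKM + 1)) of every gene tested in the receptor and pathway lists (green) and in lists of cell type markers (grey), with the number tested in brackets, a black bar at each list's median and a dashed line at the median of all genes tested (-0.15). The receptor list has a median of 0.44, the neutrophil markers one of 0.46 and the monocyte and macrophage markers one of -0.79.

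Of the other marker lists, those of lymphoid cells and platelets also had a lower summed level in every MC-21 library, and those of Kupffer, dendritic and eosinophil or mast cells overlapped. The Kupffer cell list, led by Marco and Cd5l, summed to 56.7 to 85.0 RPKM in PBS and 35 to 65.3 RPKM in MC-21 libraries, and the dendritic cell list, led by Clec9a and Zbtb46, to 4.45 to 7.68 and 4.63 to 10.7 RPKM. Eosinophil and mast cell genes, led by Siglecf and Ccr3, summed to 10.5 to 19.6 and 8.94 to 15.6 RPKM, nearly all of it Siglecf. T, NK and B cell genes, led by Cd79b and Nkg7, summed to 17.2 to 38.2 and 10.4 to 16.2 RPKM, and platelet genes, led by Pf4 and Ppbp, to 85.7 to 251 and 45.1 to 71.5 RPKM, in both cases without overlap. The platelet sum was mostly Pf4, at 75.0 to 244 RPKM in PBS and 36.7 to 60.9 RPKM in MC-21 libraries, while Itga2b, an integrin subunit of platelets, was higher in every MC-21 library, at 3.56 to 4.32 RPKM beside 2.30 to 3.26 RPKM in PBS, and 2 of the 4 platelet genes had a positive log2 fold change. Of these 5 lists 0 genes had an adjusted p under 0.05 by limma and 5 of the 14 tested had an unadjusted p under 0.05, all with lower values, against 11.2% of all genes tested, and their part in the receptor values was not tested.

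**Figure D5:**
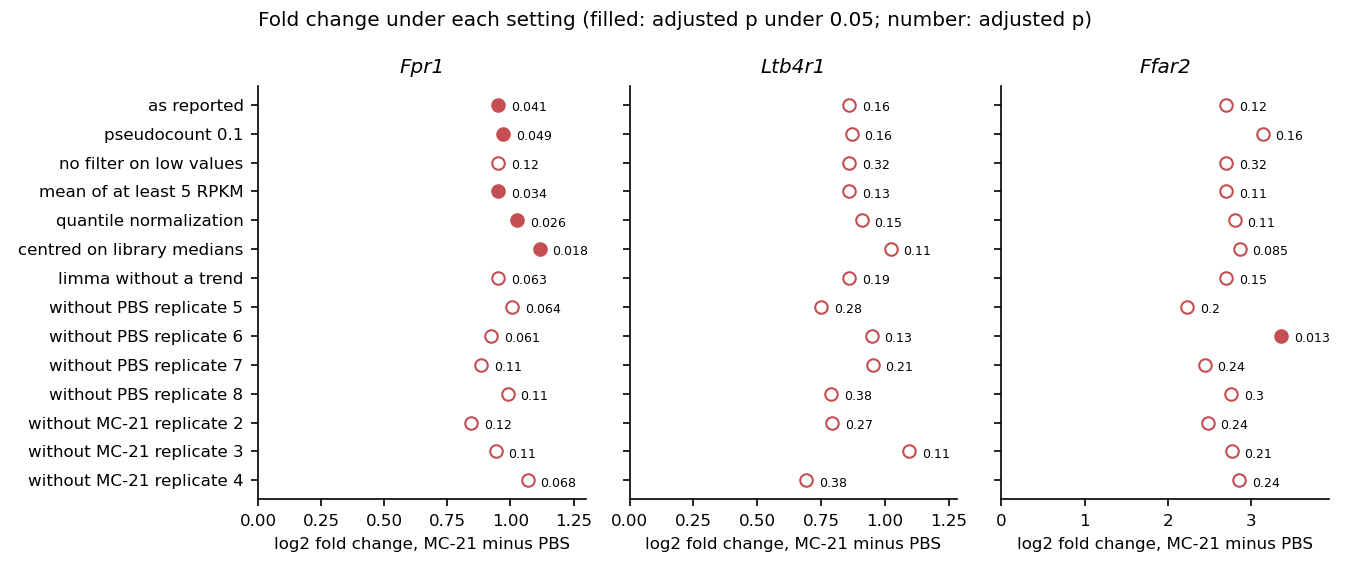
Log2 fold change (horizontal axis, MC-21 minus PBS) of Fpr1, Ltb4r1 and Ffar2 under the reported setting and each of 13 alternatives (rows), with the adjusted p beside each point and filled points where it is under 0.05. Fold changes stay positive throughout, the Fpr1 call holds in 4 of the 13 alternatives, Ltb4r1 is called in none, and Ffar2 is called without PBS replicate 6 alone.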

How the data were processed

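Neutrophils of 4 PBS-treated and 3 MC-21-treated mice were profiled by 3′ RNA-seq, 1 library per liver. The authors mapped reads to mm9 with HISAT 0.1.5, converted alignments with SAMtools and deposited RPKM values per gene from Partek Genomics Suite 6.6. The annotation, the handling of multiply mapping reads and the use of molecular barcodes are not given in the sources used here. Groups came from the sample titles. The members and gene lists were chosen with earlier results of these data known.

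Log2(RPKM + 1) of the 9594 genes whose mean reached 1 RPKM was fitted on all 7 libraries, without covariates, with limma 3.58.1 (trend, two-sided) under R 4.3.3. P-values were adjusted over these genes by the Benjamini-Hochberg method. The fit was tested on simulated data. Library depth came from the most frequent ratio of low values between libraries, then from 982 genes with 1 annotated transcript, of which 267 gave the same depth within 0.04%. With it, 6 of the 8 receptor genes had whole reads in every library within 0.01, and Poisson intervals were at 95%. Ratios of 2 genes were compared by exact permutation. Alternatives were a pseudocount of 0.1, no filter, a filter at 5 RPKM, centring on library medians, quantile normalization, limma without a trend and leaving out each library. Genes named were all receptor genes; from each pathway list those with an adjusted p under 0.05, otherwise the 2 largest changes without overlap, and the 2 most abundant; the 3 genes most like each receptor gene; the 2 most abundant of each marker list; and Ccr2. Outside this rule, Fcgr1, Pafah1b3, Camp, Csf3r, Mmp9, Adgre1, Mrc1, Ly6c2, Ms4a7 and Itga2b were named after their values were seen. Ltb4r2, Ffar3 and Hcar1 were named as neighbours of receptor genes on the chromosome. Gene positions came from the mm9 annotation, and promoters from RefSeq (GRCm38.p6), which held 7 of the 8 genes.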

Additional observations from a re-analysis of the deposited data

Results flagged for a closer look

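Among 39 genes searched for a PBS library that stands far from the other 3 by Dixon's ratio on log2(RPKM + 1), 3 marker genes were picked out, where chance picks about 1 in 20, and no receptor gene was. Marco was highest in PBS replicate 8, at 41.1 RPKM. Cd79b was highest in PBS replicate 6, at 21.5 RPKM. Ccr3 was at 0.308 RPKM in PBS replicate 8 and at 0 in the other PBS libraries. With 3 of 4 libraries at 0, Dixon's ratio is 1 for any value above 0 in the fourth, so this last one says nothing about an outlying library.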

How the results depend on the processing

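No paired analysis was possible because the groups share no replicate numbers. The Fpr1 call was lost without the filter on low values (log2 fold change 0.95, adjusted p = 0.125) and with limma without a trend (0.95, adjusted p = 0.0634), which left 0 receptor genes with an adjusted p under 0.05 in both, and it was lost without each library in turn (0.84 to 1.07). The Ffar2 call appeared without PBS replicate 6, in a range of 2.23 to 3.36 over the left-out libraries, so that 0 to 1 receptor genes were called there. Fewer libraries were fitted in these cases, and the causes were otherwise not tested. C3ar1 moved to -2.47 with a pseudocount of 0.1. C5ar1 ran from -0.56 to 0.062 over the left-out libraries, reversed to 0.062 without MC-21 replicate 4, and Ptafr reversed to 0.027 when centred. Receptor genes with an unadjusted p under 0.05 and 2-fold numbered 2 with quantile normalization, 3 when centred and 1 to 2 over the left-out libraries (2 without PBS replicate 5, MC-21 replicate 3 or MC-21 replicate 4). Over all genes, those with an adjusted p under 0.05 numbered 60 as reported (41 lower, 19 higher), 4 without the filter and 9 to 102 over the left-out libraries (9 without PBS replicate 8, 102 without PBS replicate 6, and over 1.5 times apart from 60 without any library but PBS replicate 5), and their share of higher genes was 59.5% of 74 when centred and 43.1% of 51 with quantile normalization, while 259 genes past the unadjusted p and 2-fold became 433 with a pseudocount of 0.1 and 153 with a mean of at least 5 RPKM. With a pseudocount of 0.1 neither within-library ratio passed its test (exact permutation test, two-sided, p = 0.143 for Fpr1 to Fpr2 and 0.0857 for C5ar1 to C3ar1). With a library left out, too few arrangements remained for a p under 0.05, so the test could not be passed there and decides nothing. Depth limits C3ar1 and the low PBS values of Ffar2.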
